A study of Homo sapiens with 5 samples.

Results

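The peaks described here are those of ASXL1, FOXK1 and O-GlcNAc at 9 genes of the cell cycle, E2F1, CDC6, CCNA2, CCND1, CDK2, SKP2, RB1, MYC and CDKN1A. A peak was taken when any base of it lay within 5 kb of the gene start, at a position given in the human genome build hg19. This gave 38 peaks of 194759 in the 3 deposited lists. Of these, 22 were among 94237 ASXL1 peaks, 3 among 21697 FOXK1 peaks and 13 among 78825 O-GlcNAc peaks. The genes are grouped by their role in the cell cycle, and they were proposed with earlier results of these data known.

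Chromatin immunoprecipitation followed by sequencing was done in Flp-In HEK293 T-REx cells, an embryonic kidney line with an integrated recombination site and a tetracycline repressor. There were 5 libraries, 1 for each of 3 antibodies and 2 inputs, and the labels give no treatment or genotype that differs between them. The ASXL1 and O-GlcNAc libraries were made from chromatin preparation 63 and the FOXK1 library from preparation 62, each with the input of its own preparation as control. FOXK1 and preparation therefore cannot be told apart in any difference from the other lists. With 1 library per antibody there is no replicate error, and no test between antibodies was made. Library depth is not known, and the score of a peak is the one that the authors' peak caller gave it. It is used here as a rank within its own list, where the top 1% of a list are its highest scores.

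E2F transcription factors drive the genes needed for DNA replication, and the retinoblastoma protein holds them inactive until cyclin-dependent kinases phosphorylate it. ASXL1 is a partner of the deubiquitinase BAP1, which removes ubiquitin from histone H2A and which also binds FOXK1 and the O-GlcNAc transferase. FOXK1 is a forkhead transcription factor, and O-GlcNAc is a sugar that the transferase attaches to serines and threonines of nuclear proteins. An O-GlcNAc peak therefore marks DNA near any protein that carries the sugar, not a single factor.

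The start of each of the 9 genes was covered by an ASXL1 peak and by an O-GlcNAc peak, and the 2 peaks overlapped each other at each start. A FOXK1 peak covered the start of CDC6, which loads the replicative helicase, of CCNA2, the cyclin of S phase and mitosis, and of SKP2, which directs the degradation of the kinase inhibitor p27. E2F1, RB1, CCND1, CDK2, MYC and CDKN1A had no listed FOXK1 peak within 5 kb. The FOXK1 peaks at CDC6 and CCNA2 scored below 100, and at a score of at least 100 SKP2 alone kept a FOXK1 peak. With the 10000 highest-scoring peaks per list, CCNA2 and SKP2 kept FOXK1, and SKP2 alone kept peaks of all 3 lists. The peaks of each list by distance from the starts are shown in the map of peaks near the 9 genes.

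**Figure D1:**
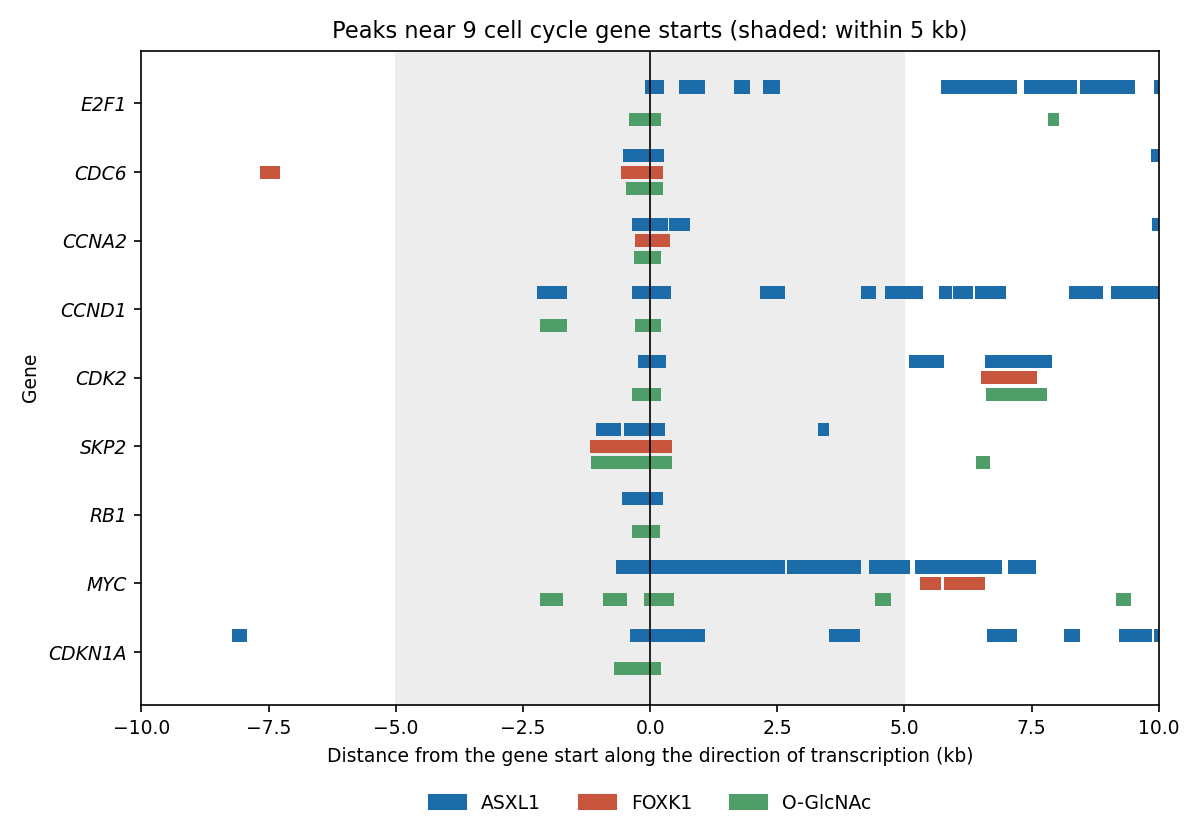
Peaks of the 3 lists (bars, 1 row per list) by distance in kb from the start of each gene (vertical line), with positive distances in the direction of transcription and the 5 kb on either side shaded. ASXL1 and O-GlcNAc bars cross the line at all 9 genes and FOXK1 bars at CDC6, CCNA2 and SKP2.

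These counts were read against the whole of chromosomes 1 to 22 and X, cut into consecutive windows of 10001 bp. An ASXL1 peak was found in 20.0% of the windows, an O-GlcNAc peak in 20.9% and both in 9.28%, against 9 of the 9 genes for each (100%, exact 95% interval 66.4 to 100%). ASXL1 peaks covered 1.31% of all bases and O-GlcNAc peaks 0.825%, against 9 of the 9 start bases in each case. A FOXK1 peak was found in 6.37% of windows and covered 0.385% of bases, against 3 of the 9 genes (33.3%, exact 95% interval 7.49 to 70.1%). Most windows hold no gene start, and the share of all gene starts with a peak was not computed because no annotation of hg19 was used here. The counts therefore do not show that these genes differ from other genes. The intervals treat genes as independent and cover counting error alone. The genes were chosen, not drawn at random, so the intervals do not extend to other genes.

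Among places that already held both other targets, the FOXK1 count was close to that of the rest of the genome. A FOXK1 peak was present in 31.7% of the windows with both an ASXL1 and an O-GlcNAc peak. It overlapped 31.3% of the ASXL1 peaks that overlapped an O-GlcNAc peak. The 3 of 9 cell cycle genes lie near these shares, so the count is not a result about the 9 genes as a set.

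The start regions of 4 of these genes are shown for their sequence features. They are the 3 genes with FOXK1 at the start and E2F1, the E2F gene of the set, which had none. Each sequence is the 250 bases before the start in RefSeq (build GRCh38.p14), 5′ to 3′ on the strand of the gene. The positions are chr20:33686386-33686635 on the minus strand for E2F1, chr17:40287629-40287878 on the plus strand for CDC6, chr4:121823884-121824133 on the minus strand for CCNA2 and chr5:36151861-36152110 on the plus strand for SKP2. They belong to that build and cannot be set against the hg19 positions of the peaks. Capitals mark exact matches to the E2F-like strings described after the sequences, and other variants are left in lower case.

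E2F1: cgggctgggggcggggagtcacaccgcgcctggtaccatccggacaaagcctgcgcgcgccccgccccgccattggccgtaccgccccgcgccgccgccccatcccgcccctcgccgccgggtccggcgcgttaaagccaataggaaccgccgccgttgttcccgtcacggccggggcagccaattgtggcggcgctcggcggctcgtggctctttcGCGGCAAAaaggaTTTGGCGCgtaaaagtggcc
CDC6: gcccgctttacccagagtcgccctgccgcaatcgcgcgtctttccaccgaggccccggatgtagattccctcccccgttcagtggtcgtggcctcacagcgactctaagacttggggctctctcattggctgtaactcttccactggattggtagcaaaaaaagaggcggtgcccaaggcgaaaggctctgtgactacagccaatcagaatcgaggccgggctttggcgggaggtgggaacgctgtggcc
CCNA2: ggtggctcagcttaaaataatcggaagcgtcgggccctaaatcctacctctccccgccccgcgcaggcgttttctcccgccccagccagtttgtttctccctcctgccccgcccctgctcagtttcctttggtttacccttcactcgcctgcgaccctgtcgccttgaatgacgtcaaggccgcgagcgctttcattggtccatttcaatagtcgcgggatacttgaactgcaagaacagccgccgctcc
SKP2: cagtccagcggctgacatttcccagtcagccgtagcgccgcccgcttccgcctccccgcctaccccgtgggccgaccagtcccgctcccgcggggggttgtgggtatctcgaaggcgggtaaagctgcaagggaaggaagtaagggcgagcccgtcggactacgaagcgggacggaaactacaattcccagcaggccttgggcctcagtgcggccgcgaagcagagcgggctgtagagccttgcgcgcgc

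RefSeq windows of 250 bases before and 50 after the start were searched on both strands for 4 E2F-like strings (TTTCGCGC, TTTGGCGC, TTTCCCGC and TTTGCCGC), the forkhead-like string GTAAACA and the E box CACGTG. The E2F1 window held TTTGGCGC from 20 to 13 bases before the start (bases -20 to -13) and TTTGCCGC on the opposite strand at bases -33 to -26. TTTGCCGC was added to the strings after the sequences had been seen, so its match at E2F1 carries no weight. The CDC6 window held TTTGGCGC at bases 8 to 15 after the start, beyond the stretch shown. The stretch shown for CDC6 holds TTTGGCGG, which differs from TTTGGCGC in its last letter only and was not among the strings searched. Only exact matches were taken, so a sequence without one can still hold other E2F-like forms. CCNA2 and SKP2 held none of the 4 E2F-like strings. Any of the 4 was present in 3.31% of all 35116 promoter windows of that length, and TTTGGCGC alone in 0.652%. GTAAACA was present in 3.42% of all windows and CACGTG in 7.26%, and in none of the 4 windows shown. The 3 genes with a FOXK1 peak at the start thus had no GTAAACA in these windows, which says only that these letters are not there. The 250 bases before the start had a GC share of 72.4% for E2F1, 67.6% for SKP2, 60.0% for CDC6 and 58.8% for CCNA2, against a median of 58.0% over all promoters in the table. They held 38, 27, 17 and 20 CG pairs in that order, against a median of 11. The table had no entry for CDK2, CCND1 and MYC, and its entries for RB1 and CDKN1A did not begin at the outer end of the gene, so these 5 genes were not searched.

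E2F1 encodes the activator that gives the E2F family its name. Its start (chromosome 20, position 32274210, minus strand) was covered by an ASXL1 peak at positions 32273935 to 32274304 with a score of 324.45, in the top 12.6% of its list. The O-GlcNAc peak at 32273991 to 32274630 had a score of 193.75, in the top 9.55%. The ASXL1 peak at the E2F1 start had the lowest rank of the 9. Within 5 kb, 3 further ASXL1 peaks followed in the direction of transcription, with scores of 90.98, 61.39 and 92.63. No FOXK1 peak was listed within 50 kb of E2F1, where the ASXL1 list had 28 peaks and the O-GlcNAc list 8.

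RB1 encodes the retinoblastoma protein, the inhibitor of E2F1. Its start (chromosome 13, position 48877883) had 1 ASXL1 peak at 48877339 to 48878137 (score 1029.93, top 3.98%) and 1 O-GlcNAc peak at 48877518 to 48878082 (score 296.22, top 6.42%). Within 50 kb of RB1 there were 3 other ASXL1 peaks, of which the highest scored 102.69, and no other O-GlcNAc peak. As at E2F1, no FOXK1 peak was listed within 50 kb. A FOXK1 peak was present in 37.2% of all windows of 100001 bp, so most stretches of that length have none. Within 50 kb, 7 of the 9 genes had a FOXK1 peak, against 53.6% of the windows of 100001 bp that held ASXL1 and O-GlcNAc peaks. In RefSeq the divergent transcript RB1-DT begins next to the RB1 start on the opposite strand.

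CDC6, CCNA2 and CDK2 act at the entry into and through S phase. At CDC6 (chromosome 17, start 38444146) the 3 peaks had nearly the same extent. ASXL1 covered 38443616 to 38444414 (score 1237.29, top 2.98%), O-GlcNAc 38443670 to 38444397 (score 428.95, top 4.47%) and FOXK1 38443566 to 38444408 (score 66.4). The downstream edges of the 3 peaks lay 268, 251 and 262 bp after the start in that order. The FOXK1 peak ranked below the middle of its list, at 61.9% from the top, whereas both other peaks were within the top 5% of theirs.

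At CCNA2 (chromosome 4, start 122745088, minus strand) ASXL1 covered 122744731 to 122745440 (score 909.43, top 4.75%). O-GlcNAc covered 122744870 to 122745411 (score 110.98, top 17.6%) and FOXK1 122744702 to 122745382 (score 86.38, 41.7% from the top). A second ASXL1 peak, with a score of 101.4, began 372 bp after the start and overlapped the same FOXK1 peak. CCNA2 and CDC6 thus had ASXL1 peaks in the top 5% of their list and FOXK1 peaks at 41.7% and 61.9% from the top of theirs.

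CDK2 encodes the kinase partner of cyclins E and A. Its start (chromosome 12, position 56360556) had ASXL1 at 56360325 to 56360869 (score 1206.46, top 3.13%) and O-GlcNAc at 56360200 to 56360767 (score 161.47, top 11.3%). FOXK1 was not listed at the start. It was listed farther along, from 6515 to 7603 bp downstream (56367071 to 56368159, score 322.71, top 5.04%), where ASXL1 (score 553.14, top 8.25%) and O-GlcNAc (score 451.09, top 4.26%) overlapped it. This downstream FOXK1 peak outscored those at CDC6 and CCNA2, and its O-GlcNAc peak outscored that at the CDK2 start. RAB5B is the next gene downstream of CDK2 in RefSeq and is transcribed in the same direction.

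CCND1 and MYC respond to growth signals in G1. CCND1 encodes cyclin D1, which activates the kinases that begin the phosphorylation of the retinoblastoma protein. Its start (chromosome 11, position 69455873) had the highest ranked ASXL1 peak of the 9 starts, at 69455519 to 69456294 with a score of 2409.89 (top 0.670%). O-GlcNAc covered 69455567 to 69456094 (score 370.96, top 5.17%). Both lists had another pair of overlapping peaks about 2 kb upstream, with centres 1924.5 bp (ASXL1, score 627.48) and 1897.5 bp (O-GlcNAc, score 127.79) before the start. The remaining 3 ASXL1 peaks within 5 kb lay downstream, with scores of 84.16, 60.39 and 112.78, and overlapped no peak of either other list.

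MYC encodes the transcription factor that activates many growth genes. Its start (chromosome 8, position 128748315) lay in an ASXL1 peak 3322 bp wide, the widest of the 9, at 128747640 to 128750961 (score 1898.93, top 1.23%). With 2 more peaks, ASXL1 covered 5470 bp of the window around MYC (54.7%), against 545 to 2535 bp at the other genes. The O-GlcNAc peak on the MYC start was weak, with a score of 52.99 at 89.1% from the top of its list. The highest O-GlcNAc peak near MYC lay upstream, with a centre 689.5 bp before the start and a score of 211.43 (top 8.77%). At the other 8 genes the highest O-GlcNAc peak within 5 kb was the peak on the start.

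Just outside the 5 kb limit, MYC had an ASXL1 peak with a score of 3100 from 5205 to 6912 bp downstream, a value shared by 304 ASXL1 peaks and exceeded by 34. It overlapped 2 FOXK1 peaks, with scores of 173.95 (top 14.8%) and 51.92, and no O-GlcNAc peak. When the window was extended to 10 kb, CDK2 and MYC joined CDC6, CCNA2 and SKP2, so 5 of the 9 genes had a FOXK1 peak, against 11.4% of all windows of 20001 bp and 34.8% of those that held ASXL1 and O-GlcNAc peaks. As at 5 kb, the higher of these shares is the one that fits places with both other targets, and the count of 5 has no test. At 4 of the 5, all but MYC, peaks of the 3 lists overlapped in 1 place.

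SKP2 and CDKN1A govern the inhibitors of cyclin-dependent kinases. At SKP2 (chromosome 5, start 36152145) all 3 lists had a peak on the start, and those of O-GlcNAc and FOXK1 were wide. O-GlcNAc covered 36150983 to 36152568 (1586 bp) with a score of 1952.14, the highest ranked O-GlcNAc peak of the 9 starts (top 0.383%). FOXK1 covered 36150960 to 36152577 (1618 bp, score 341.03, top 4.49%), with edges 23 and 9 bp outside those of O-GlcNAc. ASXL1 had 2 peaks in the same stretch, with scores of 1006.39 (top 4.11%) on the start and 441.23 before it. In RefSeq, LMBRD2 begins just upstream of SKP2 on the opposite strand. The LMBRD2 start was not placed in hg19 here, so the distance of these peaks from it is not given.

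CDKN1A encodes p21, an inhibitor of cyclin-dependent kinases and a textbook target of p53. Its start (chromosome 6, position 36646459) had ASXL1 at 36646072 to 36647539 (score 1159.54, top 3.33%) and O-GlcNAc at 36645748 to 36646664 (score 138.75, top 13.3%). The ASXL1 peak reached 1080 bp past the start and the O-GlcNAc peak 205 bp. A second ASXL1 peak 3517 bp downstream scored 64.25. No FOXK1 peak lay within 10 kb, and the nearest, 11143 bp upstream, scored 83.55 and overlapped an ASXL1 peak.

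Over the 9 starts, ASXL1 peaks ranked from the top 0.670% to 12.6% of their list, with a median of 3.33%, and 8 of the 9 were in the top 5%. O-GlcNAc peaks on the starts ranked from 0.383% to 89.1%, with a median of 9.55%, and 2 of the 9, at SKP2 and CDC6, were in the top 5%. The 3 FOXK1 peaks ranked at 4.49% (SKP2), 41.7% (CCNA2) and 61.9% (CDC6). By construction the middle of each list is at 50%, but that list was not limited to peaks that cover a given base, as those on the starts are. The ranks were also taken among peaks shared between lists. Among the 21078 ASXL1 peaks that overlapped O-GlcNAc, the median rank of the 9 was 13.8% from the top. It was 33.1% among the 21358 O-GlcNAc peaks that overlapped ASXL1. For FOXK1 the ranks among the 6250 peaks that overlapped both other lists were 11.0% at SKP2, 66.8% at CCNA2 and 82.8% at CDC6.

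**Figure D2:**
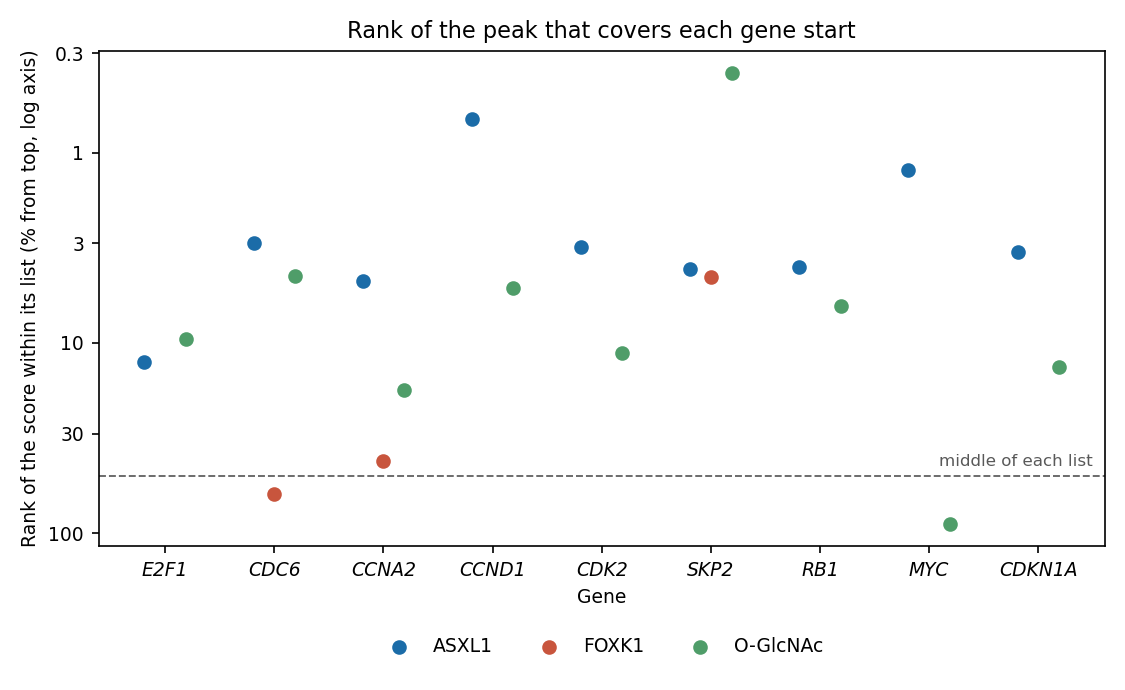
Rank of the peak that covers each gene start, as the percent from the top of its own list (log axis, highest scores at the top), with the middle of a list dashed. ASXL1 points lie between 0.670% and 12.6%, O-GlcNAc points spread from 0.383% at SKP2 to 89.1% at MYC, and the FOXK1 points lie at 4.49%, 41.7% and 61.9%.

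The order of the genes differed between the lists. ASXL1 ranked CCND1 first, then MYC (1.23%), CDC6, CDK2, CDKN1A, RB1, SKP2, CCNA2 and E2F1, and the 6 from CDC6 to CCNA2 in that order lay close together, between 2.98% and 4.75%. O-GlcNAc ranked SKP2 first, then CDC6, CCND1, RB1 (6.42%), E2F1, CDK2, CDKN1A, CCNA2 and MYC. Spearman's rho between the ASXL1 and O-GlcNAc ranks was 0.017 over the 9 starts, and 0.32 when the highest O-GlcNAc and ASXL1 peak within 5 kb was taken instead. The 2 libraries share their preparation and input, and the rho over 9 genes is a description without a test. At the 3 starts with FOXK1, ASXL1 ranks ran from 2.98% to 4.75%, within the range of 0.670% to 12.6% at the other 6. O-GlcNAc ranks ran from 0.383% to 17.6% at the 3 and from 5.17% to 89.1% at the 6. The ranges overlapped for both targets.

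The shape of the peaks on the starts also differed between the lists. Downstream edges of O-GlcNAc peaks lay 199 to 251 bp after the start at 7 of the 9 genes, and at 423 bp (SKP2) and 467 bp (MYC) in the others. Those of ASXL1 peaks lay from 254 bp (RB1) to 2646 bp (MYC), with a median of 313 bp. The ASXL1 edge was farther downstream than the O-GlcNAc edge at 8 of the 9 genes, all but SKP2. The centre of the O-GlcNAc peak lay upstream of the ASXL1 centre at 7 of the 9, by 55 bp (CCNA2) to 810 bp (MYC). It lay downstream at CDC6 by 18.5 bp and at RB1 by 62 bp. These values depend on where the peak caller split the ASXL1 signal. At SKP2 another ASXL1 peak (-1056 to -570 bp from the start) lay under the same O-GlcNAc peak (-1162 to 423 bp). At CCNA2 another ASXL1 peak began at 372 bp, close to the edge at 357 bp. The O-GlcNAc peak used at MYC scored 52.99. Whether the count of 7 holds with neighbouring peaks joined was not tested. The median width on the starts was 799 bp (ASXL1) and 584 bp (O-GlcNAc). These widths are not set against other peaks of the lists, since a wider peak is more likely to cover a given base. The edges are those the peak caller drew, and they move with the depth of a library, which is unknown.

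**Figure D3:**
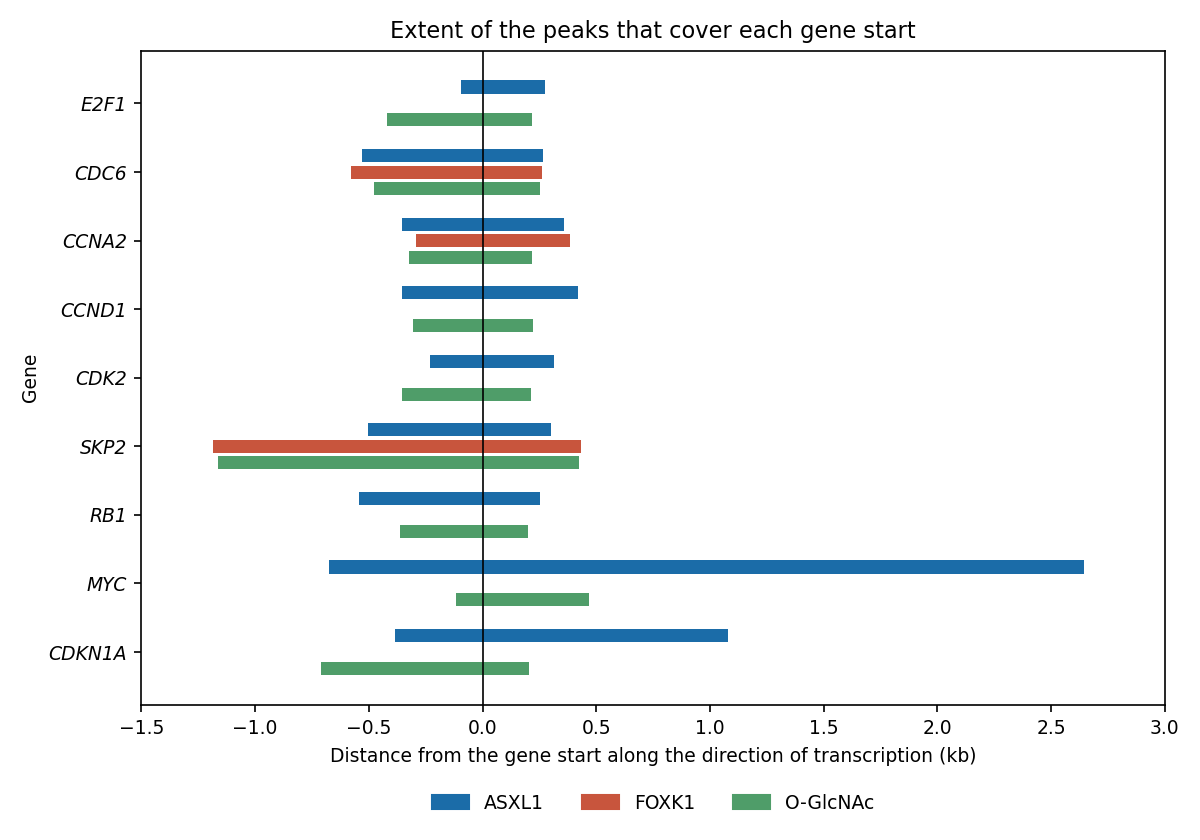
Extent in kb of the peaks that cover each gene start (vertical line), with positive distances in the direction of transcription. O-GlcNAc bars end 199 to 251 bp after the start at 7 genes, and ASXL1 bars reach farthest at MYC (2646 bp) and CDKN1A (1080 bp).

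Away from the starts, ASXL1 peaks lay mainly on the transcribed side. Within 10 kb, 33 ASXL1 peaks did not cover a start, and 30 of them were downstream and 3 upstream. The downstream peaks came from 8 genes, all but RB1, with 8 at CCND1, 7 at E2F1, 5 at CDKN1A and 4 at MYC. The 3 upstream peaks were at CCND1, SKP2 and CDKN1A, with 1 each. O-GlcNAc had 5 such peaks downstream and 4 upstream. MYC held 2 of the former and 3 of the latter, so the other genes had 3 downstream and 1 upstream. FOXK1 had 3 downstream, at CDK2 and MYC, and 1 upstream, at CDC6. Between 10 and 50 kb, 51 ASXL1 peaks were downstream and 13 upstream, with 29 of the 51 near E2F1 (16) and CDC6 (13). O-GlcNAc had 16 downstream and 10 upstream at these distances, and FOXK1 2 downstream and 4 upstream. The difference between the lists was not tested. At such distances the peaks lie beside other genes too, such as NECAB3 downstream of E2F1 and RARA downstream of CDC6 in RefSeq.

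The number of ASXL1 peaks that did not cover a start was 16.7 per 100 kb within 1 kb of the 9 starts (3 peaks), 13.9 between 1 and 5 kb and 22.2 between 5 and 10 kb. It was 11.5 between 10 and 25 kb and 7.33 between 25 and 50 kb, against 3.10 per 100 kb over all chromosomes. The lengths include the bases under the peaks on the starts, where no other peak of the same list lies. The rates nearest the starts are therefore low by construction and not strictly comparable with the farther ones. Of the 33 peaks in the farthest class, 14 were at E2F1, and the other 8 genes gave 4.75 per 100 kb there. O-GlcNAc peaks numbered 5.56, 4.17, 5.56, 4.44 and 3.11 per 100 kb in the same 5 classes, against 2.59 over all chromosomes. The first 2 of these classes held 4 O-GlcNAc peaks, 3 of them at MYC, and gave 0 and 1.56 without it. FOXK1 peaks were at 4.44 (4 peaks), 1.11 and 0.667 per 100 kb in the 3 classes beyond 5 kb, against 0.708, and the class from 5 to 10 kb gave 2.50 without MYC and its 2 peaks. The class from 10 to 25 kb gave 0.417 without CDKN1A and its 2 peaks. No FOXK1 peak lay within 5 kb of a start without covering it. With all 9 genes, ASXL1 and O-GlcNAc were above the average of the chromosomes in each of the 5 classes, and FOXK1 in the classes from 5 to 25 kb. For O-GlcNAc between 25 and 50 kb this did not hold without CDK2 or without SKP2, either of which gave 2.50 per 100 kb. FOXK1 beyond 10 kb rests on 6 peaks, and no difference between lists was tested.

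**Figure D4:**
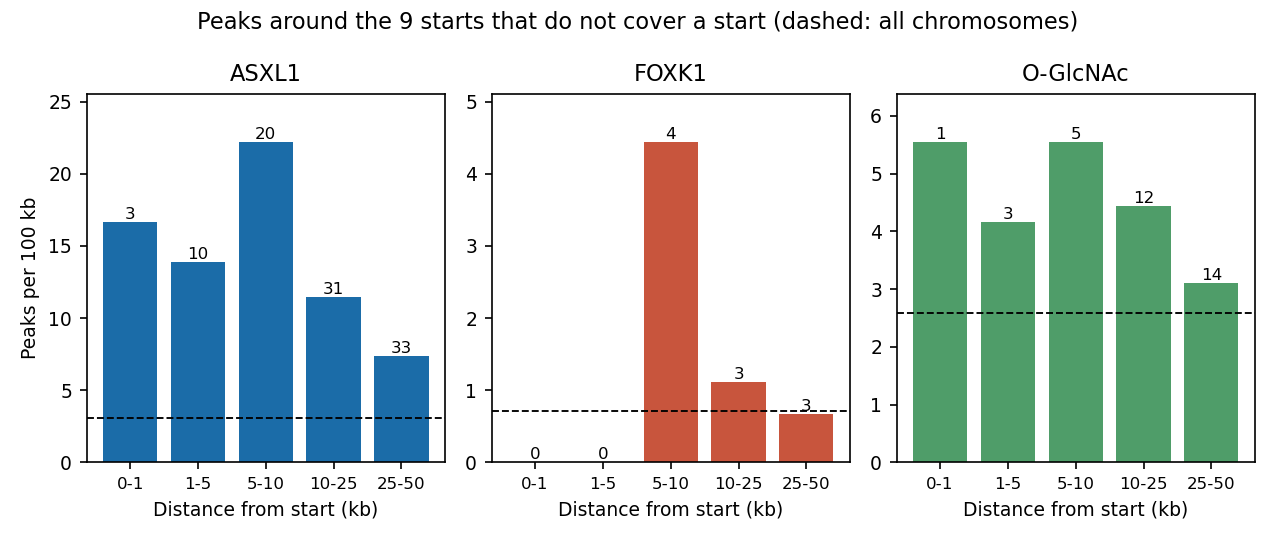
Peaks per 100 kb that do not cover a start, by distance in kb from the 9 starts, with the number of peaks above each bar and the average of all chromosomes dashed (each list has its own vertical scale). ASXL1 bars stay above the dashed line in every class, and FOXK1 has bars above it from 5 to 25 kb.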

How the data were processed

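Peaks of ASXL1, FOXK1 and O-GlcNAc were taken from 3 lists that the authors deposited, 1 library each and not pooled. Per the file headers and peak names, which name MACS, each peak has a chromosome, start, end and score. The score deposited by the authors begins at 50 in each list, and its scale is not stated. The submitters' processing notes name hg19, Bowtie2 2.0.0 and MACS 1.4. Settings, filters and depth are not given in the sources used here. Fixation was in 1% formaldehyde (10 min) and amplification took 18 PCR cycles, per the labels' protocols. The 2 input libraries were not analysed here.

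Starts were converted to count from 1. Gene starts were given in advance, and the strand came from RefSeq for 6 genes and from general knowledge for 3 (CCND1, CDK2 and MYC). An overlap was at least 1 bp. A score rank is the percent of peaks from the top of the list. Chromosome lengths were the highest peak ends in the lists. Exact intervals are Clopper-Pearson intervals. No p-value was computed, since each antibody had 1 library. All 9 genes are named. Members, lists and settings were chosen with earlier results of these data known. TTTGCCGC was added to the motifs after the sequences had been seen. Other pathway genes had no hg19 position here and were not used. Interval counting was tested on simulated data. Analysis used Python 3.11.15 with pandas 2.3.3, numpy 2.4.6 and scipy 1.17.1.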

Additional observations from a re-analysis of the deposited data

How the results depend on the processing

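Of 41 counts under other settings, 28 were within 1.5 times those reported. ASXL1 and O-GlcNAc peaks were found at 9 of 9 genes under windows of 1 kb and 10 kb, a score of at least 100 and peak centres within 5 kb, and at 8 (without E2F1) and 7 (without CCNA2 and CDKN1A) with each list limited to its 10000 highest-scoring peaks. Under both score limits the O-GlcNAc peak on the MYC start, with a score of 52.99, was lost. MYC was then counted for O-GlcNAc only through peaks off its start. A score of at least 100 left 1 gene, SKP2, with a FOXK1 peak, with peaks of all 3 lists and with a place where they overlap, and 1 FOXK1 peak in all. The 10000 highest-scoring peaks left 1 gene, SKP2, with all 3 lists and 1 with such a place, and 11 ASXL1 and 7 O-GlcNAc peaks. The 10 kb window gave 5 genes with FOXK1, 5 with all 3 lists, 42 ASXL1 and 7 FOXK1 peaks, and the 1 kb window 12 ASXL1 peaks. These settings shorten the lists or change the window, and otherwise the cause was not tested. An overlap of 50% of the shorter peak left the 3 genes. No paired analysis was possible because there was a single library of each antibody, and for that reason none could be left out. Depth is unknown, so a gene without FOXK1 is a gene with no listed peak at a score of 50 or more.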

Other observations

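Some of the strongest peaks around the 9 genes lay far from their starts. At CCNA2, an ASXL1 peak with a score of 2533.02 (chromosome 4, positions 122722036 to 122722716, top 0.605% of its list) lay 22372 bp downstream of the start, with an overlapping O-GlcNAc peak of score 1057.35 (top 1.37%). Both scored higher than the peaks on the CCNA2 start, at 909.43 and 110.98. EXOSC9 is the neighbour of CCNA2 on that side in RefSeq. At E2F1, an ASXL1 peak with a score of 1045.2 lay 10976 bp downstream, against 324.45 on the start, and overlapped an O-GlcNAc peak of score 56.45.

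FOXK1 peaks beyond 10 kb were found at CCNA2, CCND1, CDC6 and CDKN1A. The highest of them, with a score of 264.02 (top 7.40%), lay 22915 bp upstream of CDKN1A and overlapped peaks of both other lists. Near CDC6, a FOXK1 peak of score 173.26 lay 19098 bp downstream and also overlapped both, and it outscored the FOXK1 peak of 66.4 on the CDC6 start. Near CCND1, a FOXK1 peak of score 107.37 lay 34155 bp downstream at a place held by all 3 lists. SKP2 had 5 O-GlcNAc peaks between 10 and 50 kb upstream, with scores from 50.11 to 83.45, none of which overlapped a peak of another list.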
